A study of Mus musculus with 5 samples.

Results

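Runx3-bound regions of IL-2-activated mouse CD8+ T cells (CD8-TC) lay in part in chains, that is in runs of regions whose neighbouring centres were at most 10 kb apart. Chains of 3 or more regions were selected on the positions of the called regions alone, by sorting the Runx3 list along each chromosome and joining neighbours. This gave 309 chains that together held 1075 of the 9135 Runx3-bound regions (11.8%). The other regions formed 992 pairs (1984 regions) or stood alone (6076 regions), and these were used for comparison. The number, size and spacing of the chains follow from the rule and are given as a description, whereas H3K4me1, gene positions and sequence were not used to choose them.

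All samples were splenic CD8-TC of ICR mice, isolated with anti-CD8 beads, activated through the T cell receptor for 2 days on anti-CD3e with anti-CD28, and then grown for 4 days with recombinant human IL-2 at 100 u/ml. ChIP-seq, in which DNA bound to a protein is precipitated with an antibody and sequenced, was carried out with anti-Runx3 antibody (2 libraries), non-immune serum (NIS, 2 libraries) and anti-H3K4me1 antibody (1 library). The growth protocol speaks of repeat experiments for both antibodies, while the labels name 1 H3K4me1 library, so the number of libraries behind that list is not certain. The deposited data were 2 lists of positions on the mm9 assembly, called on joined reads, with neither a score nor a read number, so there are no replicate values, the depth behind a region is unknown, and the 95% Wilson intervals given here cover counting error only. Regions of 1 chain are neighbours and not independent of each other, no difference between chains, pairs and single regions was tested, and depth, which sets how many regions are called and so how many fall into chains, cannot be seen in the lists. They hold no expression values either, so the labelled cell type could not be checked against the levels of its markers.

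Runx3 belongs to the RUNX family of transcription factors, which bind a short DNA word as a dimer with Cbfb and act at promoters and enhancers. In T cells it is best known for silencing Cd4 and for the cytotoxic programme of CD8-TC. H3K4me1, a histone H3 monomethylated on a lysine, is abundant at enhancers and along the flanks of active promoters, and genes that define a cell type often have several enhancers in a row.

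Central 100-base windows of regions in 5 chains are printed to show what a chain holds at the level of sequence. They come from the chain with the most regions, which holds no gene body, from those at Gzmb, Il21r and Smad3, and from the one at Lck, none of whose regions overlapped H3K4me1. Each window is the plus strand of mm9, 5′ to 3′, and capitals mark the RUNX word, which was searched as TGTGGT and as its variants TGTGGC and TGCGGT and finally TGCGGC, on either strand. A word on the minus strand appears here as its reverse complement. The windows were picked from the 32 regions of these chains, mostly for holding a RUNX word, and 17 of the 32 central windows held none.
Chromosome 9 chain, region 1, chr9:61510503-61510602: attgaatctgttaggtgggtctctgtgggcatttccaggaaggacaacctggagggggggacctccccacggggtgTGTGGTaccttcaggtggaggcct
Chromosome 9 chain, region 2, chr9:61511947-61512046: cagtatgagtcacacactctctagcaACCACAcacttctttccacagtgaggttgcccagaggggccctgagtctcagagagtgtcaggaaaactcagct
Chromosome 9 chain, region 4, chr9:61515373-61515472: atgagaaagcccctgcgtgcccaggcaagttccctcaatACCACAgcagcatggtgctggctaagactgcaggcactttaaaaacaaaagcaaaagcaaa
Chromosome 9 chain, region 6, chr9:61517607-61517706: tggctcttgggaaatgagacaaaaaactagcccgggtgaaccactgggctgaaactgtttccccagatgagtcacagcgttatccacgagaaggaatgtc
Chromosome 9 chain, region 7, chr9:61527552-61527651: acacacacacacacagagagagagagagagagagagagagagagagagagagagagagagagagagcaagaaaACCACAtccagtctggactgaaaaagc
Gzmb chain, region 1, chr14:56881197-56881296: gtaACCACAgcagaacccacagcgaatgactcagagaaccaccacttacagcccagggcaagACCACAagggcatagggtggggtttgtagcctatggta
Gzmb chain, region 2, chr14:56885136-56885235: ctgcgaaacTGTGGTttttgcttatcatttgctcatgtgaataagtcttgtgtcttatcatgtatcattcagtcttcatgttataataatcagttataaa
Gzmb chain, region 5, chr14:56906831-56906930: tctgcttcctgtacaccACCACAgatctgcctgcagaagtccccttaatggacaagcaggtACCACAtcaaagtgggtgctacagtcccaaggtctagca
Il21r chain, region 1, chr7:132724812-132724911: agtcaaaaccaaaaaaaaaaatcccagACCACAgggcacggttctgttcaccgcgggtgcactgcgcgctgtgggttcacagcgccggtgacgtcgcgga
Il21r chain, region 5, chr7:132740651-132740750: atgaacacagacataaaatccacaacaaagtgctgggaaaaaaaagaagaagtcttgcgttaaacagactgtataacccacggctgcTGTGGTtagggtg
Il21r chain, region 7, chr7:132751000-132751099: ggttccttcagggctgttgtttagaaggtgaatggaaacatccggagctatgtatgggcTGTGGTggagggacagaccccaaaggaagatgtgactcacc
Smad3 chain, region 4, chr9:63580582-63580681: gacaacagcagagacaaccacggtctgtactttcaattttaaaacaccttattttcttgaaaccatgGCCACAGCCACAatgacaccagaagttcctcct
Smad3 chain, region 5, chr9:63585524-63585623: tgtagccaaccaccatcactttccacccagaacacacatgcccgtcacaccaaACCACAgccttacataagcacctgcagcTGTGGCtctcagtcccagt
Lck chain, region 1, chr4:129248925-129249024: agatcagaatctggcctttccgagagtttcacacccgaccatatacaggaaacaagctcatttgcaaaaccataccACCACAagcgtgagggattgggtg
Lck chain, region 2, chr4:129250902-129251001: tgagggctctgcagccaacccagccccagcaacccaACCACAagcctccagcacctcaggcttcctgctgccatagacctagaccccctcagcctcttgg

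Most of the printed windows carried 1 RUNX word, and regions 1 and 5 of the Gzmb chain carried TGTGGT on 2 occasions each. Region 4 of the Smad3 chain held TGTGGC as a direct repeat on the minus strand. Region 6 of the chromosome 9 chain is shown as a window without a RUNX word. It holds tgagtca, the word of the AP-1 factors, and the whole region held 1 RUNX word. The AP-1 word, as tgagtca or tgactca, also stands in printed windows with a RUNX word. These are region 2 of the same chain, region 1 of the Gzmb chain and region 7 of the Il21r chain.

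Chains were mostly short. Of the 309 chains, 212 had 3 regions, 66 had 4, 19 had 5, 6 had 6, 4 had 7 and 2 had 8, so that the 31 chains of 5 or more held 175 regions. Their spans, from the first base of the first region to the last base of the last, had a median of 10.5 kb (quartiles 7.03 and 14.6 kb, range 1.504 to 35.1 kb). Together the spans covered 3.47 Mb, or 0.136% of the 2556 Mb of sequenced mm9 bases, and called regions made up 17.8% of them. The 766 distances between neighbouring centres within chains had a median of 3.75 kb (quartiles 1.89 and 6.39 kb), and 86 of them were at most 1 kb. A peak caller can list 1 broad enrichment as several close regions, and whether close regions were separate sites was not tested. Merging of regions with under 1 kb between their edges, which joins more regions than 1 kb between centres would, left 217 chains. Around the threshold, the longest distance that was joined was 9987 bp and the shortest that was not was 10013 bp. In the whole list, 115 distances fell between 9 and 10 kb and 122 between 10 and 11 kb. Joining at 9 kb gave 277 chains with 947 regions and joining at 11 kb gave 344 chains with 1214 regions, and 54 of the 309 chains contained a distance over 9 kb.

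Chains lay on each of the 19 autosomes whereas none of the 93 Runx3-bound regions of chromosome X was in a chain. Chromosome 7 had 100 of its 616 regions in 27 chains (16.2%), chromosome 8 had 66 of 427 in 19 (15.5%), and chromosome 12 had 21 of 366 in 6 chains (5.74%). The regions of chains were about as wide as the others, at a median of 545 bp and between 177 and 1512 bp, compared to 534 bp in pairs and 512 bp among single regions. Their median GC content was 50.5%, the same as that of single regions.

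**Figure D1:**
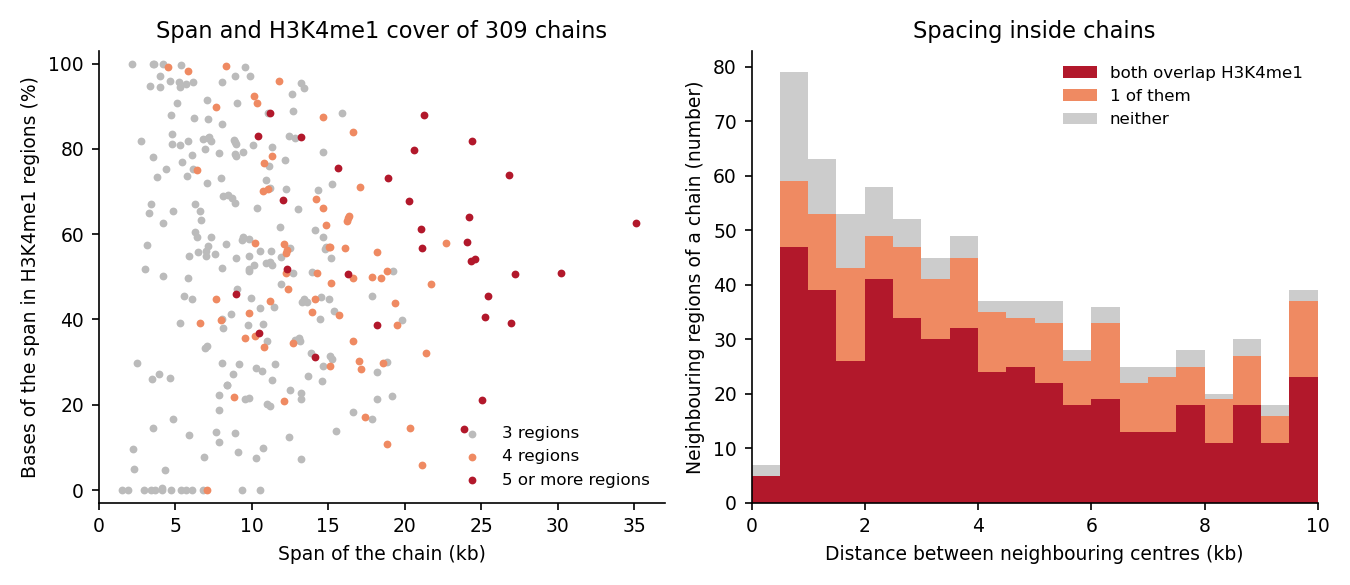
Left, each point is 1 of the 309 chains, with its span in kb against the percentage of span bases lying in H3K4me1 regions, coloured by the number of Runx3 regions. Right, the 766 distances between neighbouring centres in 0.5 kb bins, coloured by whether both, 1 or neither of the neighbours overlapped H3K4me1. Short chains reached both 0% and 100% cover, the longest had a span of 35.1 kb, and 469 neighbour pairs were both marked.

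H3K4me1 covered chains more often than other Runx3-bound regions. Of the 1075 chain regions, 799 shared at least 1 bp with an H3K4me1 region (74.3%, interval 71.6 to 76.8%), compared to 65.7% of regions in pairs (63.6 to 67.7%) and 51.5% of single regions (50.3 to 52.8%). Over all 9135 Runx3-bound regions the share was 57.3%. Within chains the share did not rise with size beyond the intervals, at 74.1% in chains of 3, 73.1% in chains of 4 and 77.1% in chains of 5 or more (70.4 to 82.7%). The order of chains, pairs and single regions was the same in each class of distance to the nearest annotated transcript start (TSS). Under 1 kb from a TSS, 40.3% of chain regions were marked (33.9 to 47.0%), compared to 24.4% in pairs and 16.4% of single regions (14.7 to 18.2%). At 1 to 5 kb the shares were 71.4%, 69.5% and 61.7%, and there the intervals of chains and pairs overlapped. At 5 to 50 kb they were 86.0%, 81.3% and 67.6%. At 50 kb or more, 97 of 106 chain regions were marked (91.5%, 84.6 to 95.5%), and the shares in pairs and single regions were 78.8% and 63.5%. Because neighbours can touch the same H3K4me1 region, these counts are not independent.

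**Figure D2:**
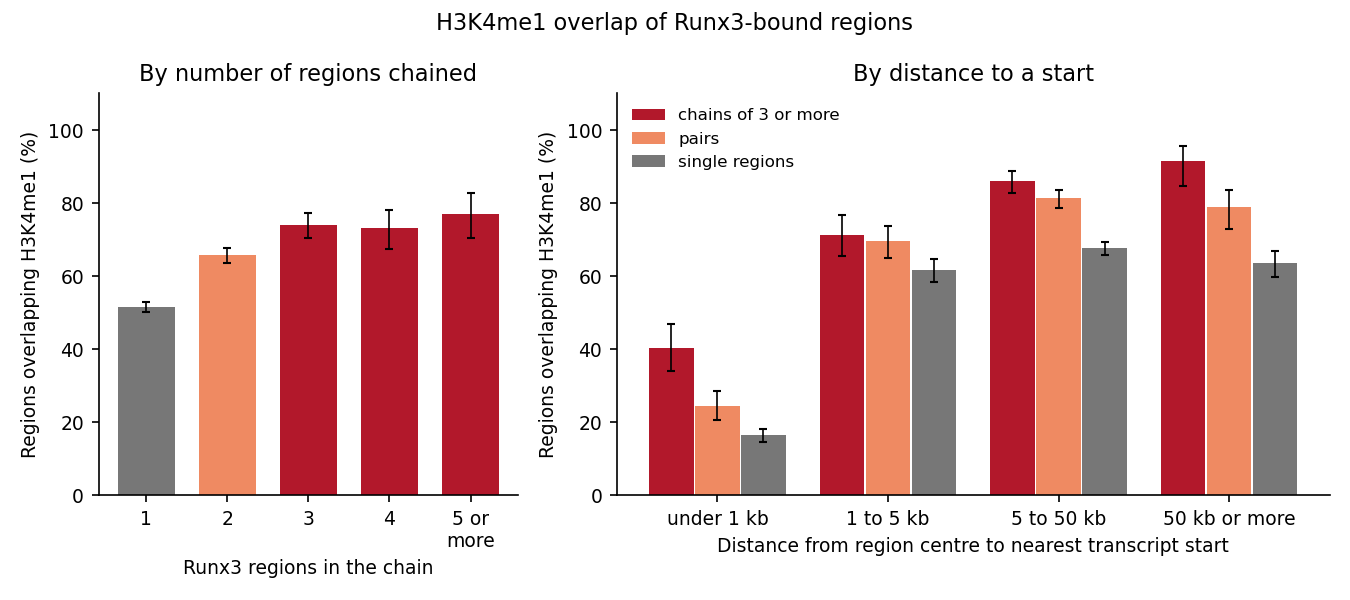
Percentage of Runx3-bound regions that overlapped an H3K4me1 region by at least 1 bp, left by the number of regions chained together and right by distance to the nearest TSS for chains of 3 or more, pairs and single regions. Bars are percentages and whiskers 95% Wilson intervals. The share was 51.5% for single regions and 74.1 to 77.1% for chains of 3, 4 and 5 or more, and it was lowest under 1 kb from a TSS in all 3 groups.

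Seen chain by chain, 142 of 309 (45.95%) had every region marked, 151 had some and 16 (5.18%) had none. By comparison, 517 of 992 pairs (52.1%) had both regions marked and 206 (20.8%) had no marked region. Both of these shares also depend on the number of regions joined. The median chain had 53.6% of its span in H3K4me1 regions (quartiles 32.1 and 74.95%). In 174 chains the cover was 50% or more and in 29 it was 90% or more, while in 14 no base was covered. The cover was not limited to the called regions. In chains 58.5% of the bases of Runx3 regions and 49.98% of the bases between them lay in H3K4me1 regions. In pairs these shares were 55.4% and 42.6%, and of the bases of single regions 44.7% were covered. Cover was lower outside the chains, where the rule leaves no further Runx3 centre within 10 kb of the end regions. At 5 kb beyond the span, 13.6% of chains had H3K4me1 on the left and 19.4% on the right, and at 50 kb beyond it 7.44% and 8.41%. No such values are given for pairs and single regions, so the drop cannot be called particular to chains.

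A chain was rarely 1 continuous H3K4me1 region. The median span touched 3 H3K4me1 regions and the Gzmb chain the most, 11. In 186 chains there were 3 or more, and in 6 chains all members touched 1 and the same region. These 6 lay at Prrc2c, Abtb2, Arfip1 with Tmem154, and Sema4b, between Grb7 and Ikzf3, and between Zdhhc14 and Snx9. Ikzf3 encodes the lymphoid zinc finger factor Aiolos. Of the 766 neighbouring members, both were marked in 469, 1 in 203 and neither in 94, and in 173 cases both touched the same H3K4me1 region. That share fell with distance, from 47.0% at up to 2 kb (40.3 to 53.9%) to 24.7% at 2 to 5 kb and 3.16% at 5 to 10 kb (1.67 to 5.89%). Regions at the ends of a chain were marked in 457 of 618 cases (74.0%, 70.35 to 77.25%) and those inside it in 342 of 457 (74.8%, 70.66 to 78.6%), a difference within the intervals. From the side of the H3K4me1 list, 22 regions held 3 or more Runx3-bound regions, and these had a median width of 5724 bp, compared to 3312 bp for the 326 that held 2 and 1847 bp for the 5202 that held 1. Wider regions have more room for called regions, and this was not corrected for.

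In relation to genes, 107 chains contained the start of a protein-coding gene, 97 lay inside a gene body without its start, 14 partly in a gene body, and 91 held no gene body. The share of marked regions was highest in chains without a gene body, at 85.1% (269 of 316), and was 79.0% inside genes and 61.5% (240 of 390) in chains holding a gene start. Of chain regions, 211 were under 1 kb from a TSS (19.6%, 17.4 to 22.1%), compared to 28.7% of single regions and to 26.3% over all Runx3-bound regions. At least 1 such region was present in 141 chains, all members were of this kind in 7, and 110 chains had no region within 5 kb of a TSS. In the chains with a region under 1 kb from a TSS, the regions near the TSS were marked in 40.3% and the other 298 in 74.5% of cases (69.26 to 79.11%). This was below the share in chains without a region so near a TSS, where 492 of 566 regions were marked (86.93%, 83.9 to 89.46%). Centres lay in an intron in 47.6% of chain regions (44.7 to 50.6%) and 40.7% of single regions, and in a coding exon in 1.30% and 3.01%. In 250 chains (80.9%) all regions had the same nearest protein-coding gene start.

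The RUNX word occurred in chain regions as often as elsewhere, but less often in several copies. Within the central 200 bp, 78.0% of chain regions held at least 1 of the 4 RUNX words (75.4 to 80.3%), compared to 77.4% in pairs, 79.4% of single regions and 78.8% over all Runx3-bound regions. At least 2 RUNX words were found in 32% of chain regions (29.3 to 34.8%), 34.8% of pair regions and 38.6% of single regions (37.4 to 39.9%). The difference was seen among marked regions, 32.5% in chains and 42.1% among single ones, and at 5 to 50 kb from a TSS, 33.1% and 43.0%, but not under 1 kb, where the shares were 30.8% and 29.7%. Mean numbers of RUNX words per 200 bp were 1.21 ± 0.945 (SD over 1075 chain regions) and 1.35 ± 1.09 (SD over 6076 single regions). Summed over the central 200 bp of all regions of a chain, the number of words had a median of 4 and a maximum of 15, reached by the Il21r chain. Every member held a RUNX word in 134 chains (43.4%), and in 1 chain, between Grifin and Lfng, none did.

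Of the RUNX words, TGTGGT was the most frequent, in 55.3% of chain regions and 54.3% of all Runx3-bound regions, followed by TGTGGC in 26.8%, TGCGGT in 10.3% and TGCGGC in 6.70%. In single regions the words with CG were found more often, with TGCGGT in 14.8% (13.9 to 15.7%) and TGCGGC in 8.92%. Under 1 kb from a TSS, TGTGGT was present in 38.9% of chain regions (32.5 to 45.6%) and 28.4% of single regions (26.3 to 30.5%), and TGCGGT in 17.5% and 25.4%. At 5 to 50 kb the order for TGTGGT was the opposite, with 57.5% of chain regions (53.2 to 61.7%) and 65.5% of single regions (63.7 to 67.3%), and among marked regions the shares were 57.8% and 65%. The lower share of the words with CG in chains was not seen among marked regions, where TGCGGT was in 9.26% of chain and 9% of single regions and TGCGGC in 5.26% and 4.37%. At 5 to 50 kb TGCGGC was in 4.81% and 4.48%, and TGCGGT in 9.04% and 10.6%, with overlapping intervals. The ETS word (AGGAAA or else AGGAAG or CGGAAA or else CGGAAG, which may share a base with a RUNX word) was found in 65.8% of chain regions, 66.0% of single regions and 66.2% over all Runx3-bound regions. The AP-1 word (TGACTCA or TGAGTCA) was found in 6.98%, 6.30% and 6.5%. TTCNNNGAA, the word bound by STAT factors, which act downstream of cytokine receptors, was added after these counts were seen. It was present in 13.5% of chain regions (11.6 to 15.7%), 11% of pair regions, 10% of single regions (9.31 to 10.8%) and 10.7% of all. Under 1 kb from a TSS the STAT word was present in 12.3% of chain regions (8.55 to 17.4%) and 6.08% of single regions (5.06 to 7.31%), while at 5 to 50 kb it was in 12.3% and 11.8%. A word is only a match of letters and does not show that a factor was bound.

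**Figure D3:**
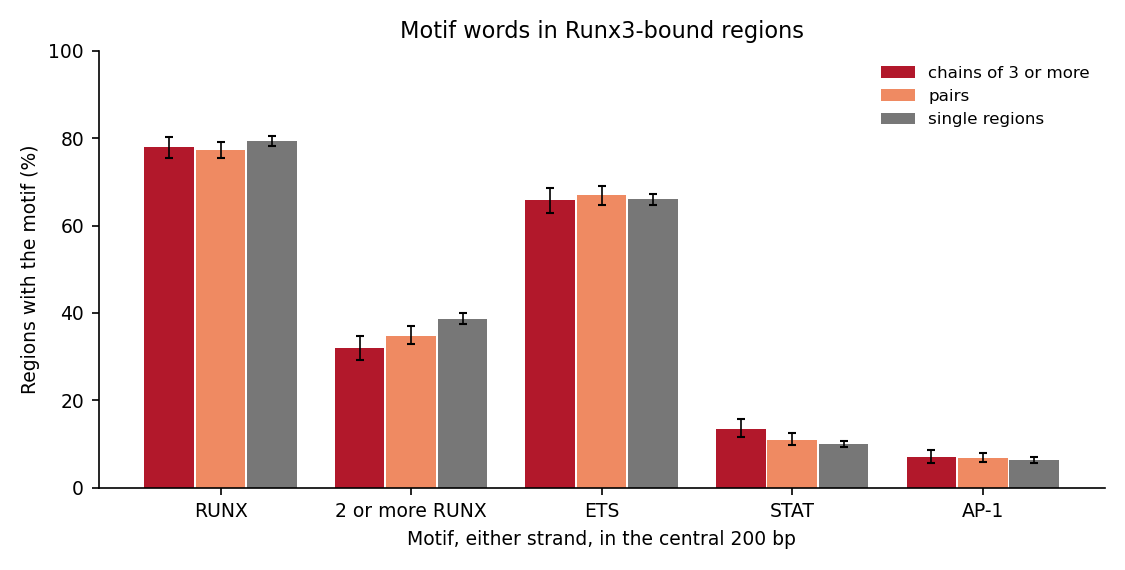
Percentage of regions in chains of 3 or more, in pairs and alone whose central 200 bp held each motif word on either strand. Bars are percentages and whiskers 95% Wilson intervals. RUNX (78.0, 77.4 and 79.4%), ETS and AP-1 were within or near each other's intervals, 2 or more RUNX words were fewest in chains (32%), and the STAT word was most frequent there (13.5%).

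The 10 chains with the most regions are described in turn. The chain at chr9:61510247-61529146 had 8 regions in 18.9 kb, all 8 marked, and 73.3% of the span was covered by 4 H3K4me1 regions. It held no gene body, and the nearest protein-coding genes were Tle3, a corepressor, 244 kb away on one side and Rplp1, a ribosomal protein gene, 232 kb away on the other. Of the 8 regions, which were 438 to 759 bp wide, 6 followed each other closely at one end and the other 2 lay at the far end. RUNX words were present in 7 of the 8, with 3 words in region 4. After merging of regions with under 1 kb between their edges, 2 regions stayed joined there, the lowest number among the 10 chains under that setting. This is below the 3 that the rule asks for, so no chain was left by the rule.

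The other chain of 8 was at chr16:10768662-10788957 (20.3 kb), and held Socs1, an inhibitor of cytokine signalling induced by STAT factors, and Tnp2, a gene of sperm chromatin. Of its 8 regions, 5 were marked. Marked regions, 3 in number, lay 13.1 to 16.7 kb downstream of the Socs1 start, 3 unmarked ones lay 3.34, 2.12 and 0.16 kb downstream of it, and a marked region of 1019 bp, the widest of the chain, was centred 0.782 kb upstream. The last one, over the first part of Tnp2, was marked. After the same merging 3 regions stayed joined, and joining at 5 kb left 5 of the 8 in a row. RUNX words were present in the central 200 bp of 6 of the 8, the exceptions being region 2 and the one nearest to the Socs1 start.

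Chains of 7 were found at Smad3, upstream of Grap2, at Il21r and at Gzmb. In the Smad3 chain (chr9:63567627-63588910), all 7 regions were intronic, 17.3 to 37.9 kb downstream of the start of this transducer of TGF-beta signals, all 7 were marked, and 87.9% of the 21.3 kb span was covered. The chain at chr15:80421012-80445378 lay between Enthd1 and Grap2, an adaptor of T cell receptor signalling. Its regions 2 to 7 lay 23.9 to 8.82 kb upstream of the Grap2 start, and the region nearest to Grap2 was the only unmarked one of the 7. Neither chain contained the start of a protein-coding gene.

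The Il21r chain (chr7:132724520-132751317, 26.8 kb) began 1.53 kb after the end of Il4ra, which encodes the receptor chain for IL-4, and ended in the first part of Il21r, which encodes that for IL-21. Its first 5 regions, all marked, lay 22.1 to 6.24 kb upstream of the Il21r start, the unmarked one at the start itself, and the last one, marked, 4.11 kb downstream. All 7 regions held a RUNX word in the central 200 bp, 15 words in all. Region 3, 1265 bp wide, held 2 in that window and 11 over its whole width. The Gzmb chain (chr14:56880943-56916057) was the longest of all at 35.1 kb. It ran upstream from the promoter of Gzmb, the gene for the cytotoxic protease granzyme B, with regions 0.15, 4.09, 13.99, 22.3, 25.8, 34.1 and 34.8 kb from the start. All but region 3 were marked, and all 7 held a RUNX word. Joining at 5 kb left 2 of its 7 regions in a row, and 4 of 7 in each of the Smad3 and Il21r chains. The unmarked region 3 had 48.5% of its 32-base words found once in the genome, the other 6 had between 93.2 and 100%. The role of this in the missing mark was not tested.

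**Figure D4:**
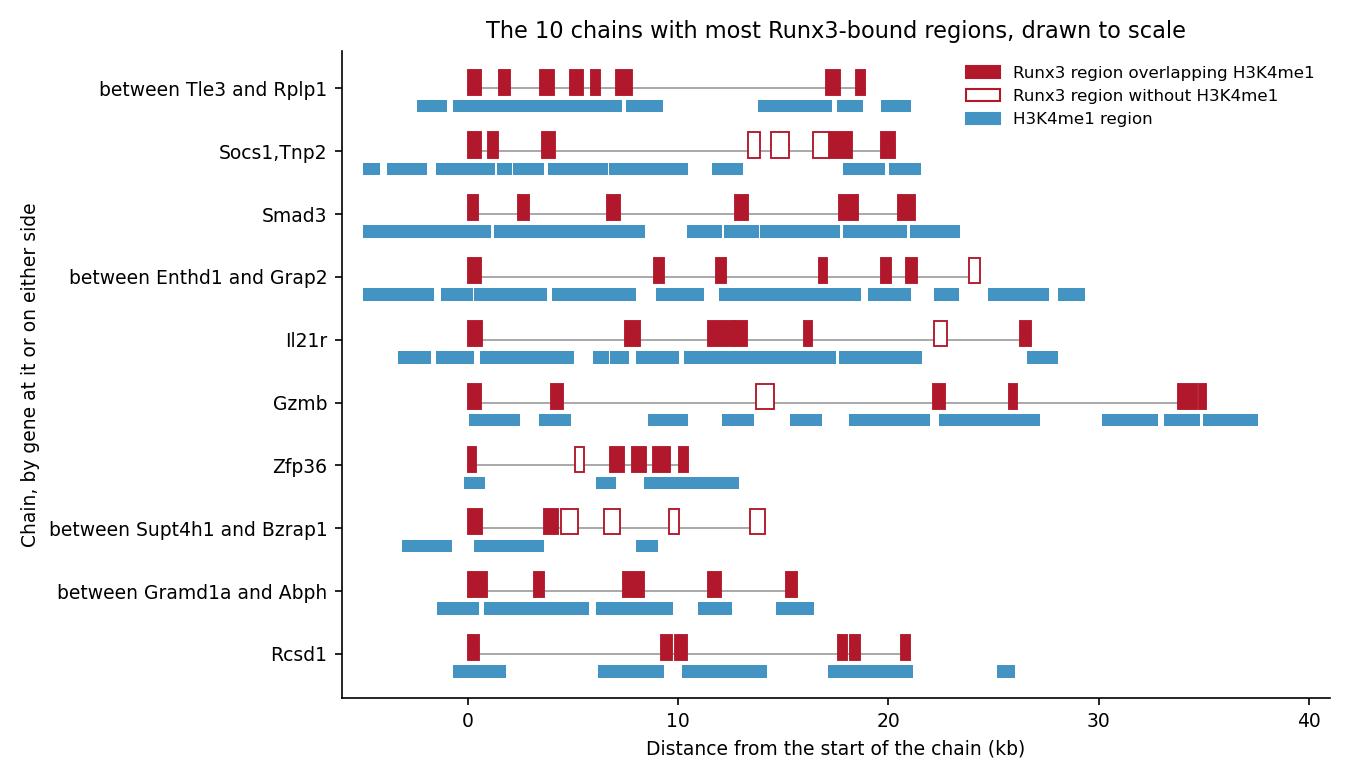
The 10 chains with the most Runx3-bound regions, drawn to scale from the start of each chain (kb). Filled boxes are Runx3 regions overlapping H3K4me1, open boxes those without, and bars below are H3K4me1 regions within 5 kb of the span. The Socs1 chain has 3 open boxes of 8 and the chain between Supt4h1 and Bzrap1 has 4 of 6, while 4 of the 10 chains have filled boxes only.

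The other 4 of the 10 chains had 6 regions each. At Zfp36, which encodes an RNA-binding protein that promotes decay of cytokine mRNAs (chr7:29159048-29169524), regions lay 0.094, 1.87, 2.92, 4.00 and 5.04 kb upstream of the start and a further one beyond the 3′ end, and the one at 0.094 kb was the only unmarked one. Merging of regions with under 1 kb between their edges turned these 6 into 3 joined regions. The chain at chr11:87558387-87572520 lay between Supt4h1 and Bzrap1 and held no protein-coding gene, but the annotation placed Mir142, a microRNA gene of blood cells, and the transcript A430104N18Rik within it. Only 2 of its 6 regions were marked, both on the Supt4h1 side, and 31.2% of the span was covered. At chr7:31938243-31953893, 6 marked regions lay 2.62 to 17.6 kb upstream of Gramd1a, a gene of membrane lipid transport. At Rcsd1 (chr1:167621500-167642539), 3 regions were intronic, 3 were 1.09 to 4.11 kb upstream of the start, and all 6 were marked. Joining at 5 kb left 3 of them in a row. With Smad3 and the 8-region chain on chromosome 9, these make 4 of the 10 chains with every region marked.

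Among the 16 chains without a marked region, the 3 with the most regions were at gene starts. The first, at chr13:22118282-22142154, had 5 regions in 23.9 kb across Hist1h2ah, Hist1h2bk, Hist1h4i, Hist1h2ag and Hist1h2bj, replication-dependent histone genes, and 3 of its regions were under 1 kb from a TSS. Histone genes are near-identical copies, and 69.3% of the words of its region 3 were unique, so the positions there are less certain. The second, at chr10:80157926-80165001, had 4 regions in Mob3a, 6.40, 5.202 and 0.865 kb downstream of its start and 0.111 kb upstream of it. The third, at chr8:35205613-35226756, had 4 at Leprotl1 and Tmem66. Of the other 13, all with 3 regions, those at Lck, Lef1, Cd53, Arid1a and Rhog were named after their values had been seen. At Lck, which encodes the kinase that starts T cell receptor signalling, 3 regions lay in 4.15 kb around the start, 2 of them with a RUNX word, and no base of the span was covered. Lef1 encodes a factor of naive T cells that acts with Wnt signals, and all 3 regions of its other chain were marked.

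Genes at and next to chains were counted next. The 309 chains overlapped 267 of 22350 protein-coding genes (1.19%), and another 332 had the nearest gene body on either side within 50 kb of a span, 599 in all (2.68%). Genes at chains were longer than genes at large, with a median of 34.5 kb compared to 15.4 kb, and a long gene has more room for a chain. In 44 chains there were 2 or more genes. Lists of genes were then compared with these shares. Of 252 genes of 10 T cell lists, 35 (13.9%) were at a chain and 60 (23.8%) at or next to one, compared to 0 of 44 genes of lists for B cells, for myeloid cells and for liver, neuron and muscle (intervals up to 24.2, 21.5 and 17.6% for these 3 lists). Neighbouring genes can share a chain, and the largest chains of the 60 genes were 54 in number. A Runx3-bound region in the gene body was found for 64.3% of the T cell list genes, 11.4% of the 44 and 18.1% of all protein-coding genes, and its part in the difference was not tested. The lists were drawn up with earlier results of these data known, so the shares describe the lists and do not test them.

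**Figure D5:**
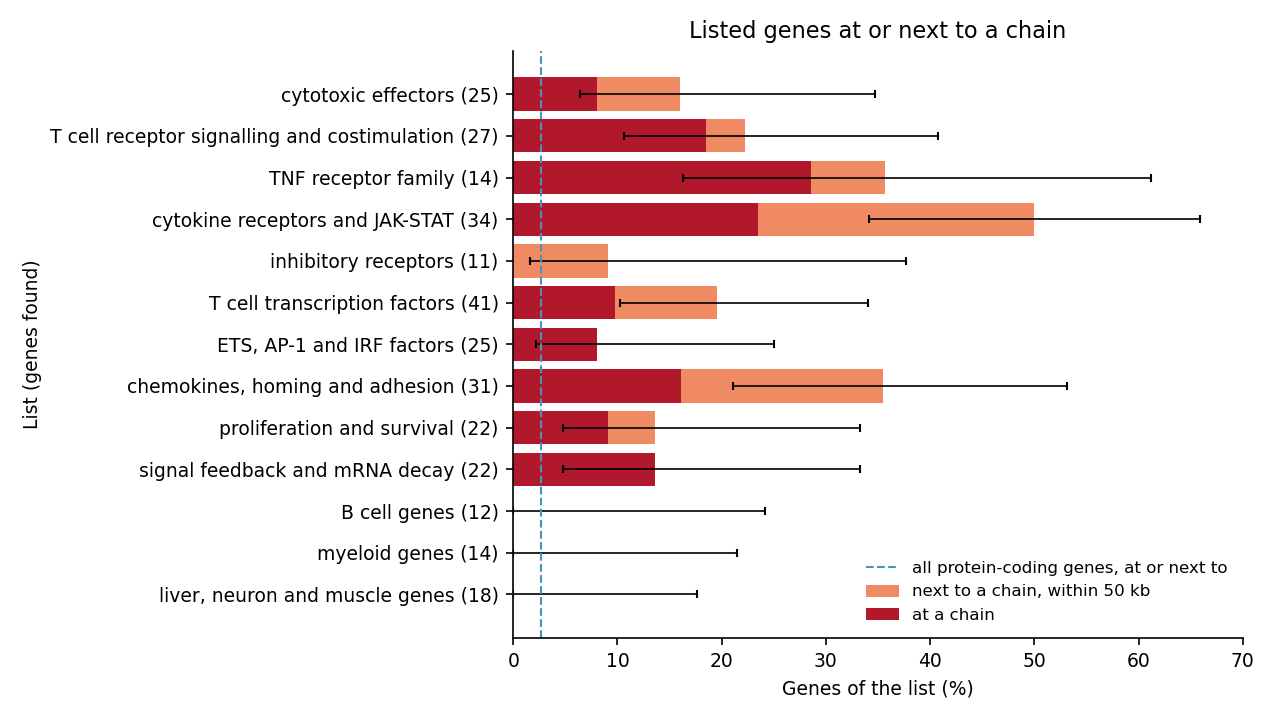
Percentage of the genes of each list that were at a chain (dark) or next to one within 50 kb (light), with the number of genes in brackets. Whiskers are 95% Wilson intervals for both together, and the dashed line is the 2.68% of all protein-coding genes. Cytokine receptors and JAK-STAT had the highest share at 50%, and the 3 lists for other cell types had 0%.

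Cytokine receptors and their JAK-STAT signalling genes stood highest, with 17 of 34 genes at or next to a chain (50%, 34.1 to 65.9%). Chains were at Il21r, Il12rb2, Il18r1, Il1rl1, Jak1, Stat4, Socs1 and Pim1, and next to Il2ra, Il2rb, Il4ra, Il18rap, Il6st, Ifnar1, Tgfbr1, Tgfbr2 and Cish. They thus included the alpha and beta chains of the receptor for IL-2, the cytokine used in the culture, and its feedback inhibitor Cish. The receptors for IL-12 and IL-18 are those through which CD8-TC are driven to make interferon gamma. Il1rl1, Il18r1 and Il18rap are neighbours, as are Il4ra and Il21r, so these genes share chains and do not count separately.

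In the TNF receptor family list, which holds costimulatory receptors of T cells and their intracellular adaptor Traf1, 5 of 14 genes were at or next to a chain (35.7%, 16.3 to 61.2%), namely Tnfrsf9, Tnfrsf18, Cd27, Traf1 and Tnfrsf4. The chain at Tnfrsf9, which encodes 4-1BB, was at chr4:150288412-150299600, with 5 regions in 11.2 kb, all marked and all with a RUNX word, and a cover of 88.4%. At Cd27 (chr6:125165245-125192175) there were 5 regions in 26.9 kb, of which 2 were marked. Regions 1 and 2 of this chain were nearest to the start of Vamp1, 0.057 and 6.69 kb downstream of it. Region 3 was nearest to that of Tapbpl, at 0.104 kb, and only regions 4 and 5 to that of Cd27. Tnfrsf18 and Tnfrsf4, which encodes OX40, are neighbours and shared a chain of 3 marked regions, at Tnfrsf18 and 5.33 kb from Tnfrsf4. The 3 chains had every region with a RUNX word in common, while the share of marked regions ranged from 2 of 5 to all.

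Among chemokines, homing and adhesion genes, 11 of 31 were at or next to a chain (35.5%, 21.1 to 53.1%). A chain of 5 regions in 24.3 kb (chr11:98992484-99016785), 4 of them marked, ran from the start of Ccr7, the receptor that guides T cells into lymph nodes, across the gene and beyond its 3′ end. A chain of 5, 4 of them marked, lay 13.6 kb upstream of Cxcr4, another chemokine receptor (chr1:130502450-130514510). In both, all 5 regions held a RUNX word. Ccr2 had a chain of 4 with 2 marked and 1 region with a RUNX word. The other genes included S1pr4, Selplg, Ccl5, Xcl1, S1pr1 and Cd69.

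T cell receptor signalling and costimulation had 6 of 27 genes at or next to a chain (22.2%, 10.6 to 40.8%). Cd28, the costimulatory receptor engaged in the culture, had 4 regions in 12.7 kb, 1 of them marked. The others included Lck, Plcg1, Sla2 and Ptprc.

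T cell transcription factors were at or next to a chain in 8 of 41 cases (19.5%, 10.2 to 34.0%), with Runx1, Lef1, Bach2 and Tox at a chain and Runx3, Klf2, Ikzf3 and Egr3 next to one. For Runx3 itself, a chain of 3 marked regions with a cover of 94.3% lay 39.6 kb upstream of the gene body (chr4:134623538-134636955). In Runx1, a chain of 3 regions in 13.2 kb lay within the gene, with 2 regions marked and 1 with a RUNX word. Klf2, a factor that keeps T cells quiescent, was 29.0 kb from a chain of 4 marked regions. These lay 32.1 to 41.5 kb downstream of the Klf2 start, with their centres in introns of protein-coding sequence other than Klf2. Of 25 ETS, AP-1 and IRF factors, Fli1 and Erg had a chain (8%, 2.22 to 25%), of 4 and 3 regions, all of them marked. The interval of this list included the 2.68% over all protein-coding genes.

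The cytotoxic effectors had 4 of 25 genes (16.0%, 6.40 to 34.7%). Gzmb and its neighbour Gzmc, 27.4 kb from it, shared the chain of 7. The chain at Prf1, which encodes perforin, had 3 regions in 9.16 kb, 2 of them marked and all with a RUNX word, and the fourth gene was Fasl. Proliferation and survival genes had 3 of 22 (13.6%, 4.75 to 33.3%): Ccnd3, a D-type cyclin, with 6 regions in 27.2 kb, all marked, Bcl2 with 3 marked regions, and Mcl1, 5.35 kb from a chain of 3 with 1 marked. Signal feedback and mRNA decay genes also had 3 of 22, Zfp36 and the phosphatase genes Dusp5 and Dusp6, the latter pair with 1 of 3 regions marked each. Of 11 inhibitory receptors, Havcr2, which encodes Tim-3, was the only one (9.09%, 1.62 to 37.7%). This interval, too, included the 2.68% over all protein-coding genes. Havcr2 was 17.0 kb from a chain of 3 with 1 marked. That chain lay at another gene, Med7, whose start was the nearest for all 3 regions. Its regions 2 and 3 were 0.154 and 0.75 kb downstream of the Med7 start. The intervals of the T cell lists other than cytokine receptors and JAK-STAT all overlapped, so that the order of those lists is not settled. The interval of cytokine receptors and JAK-STAT (34.1 to 65.9%) overlapped those of some lists only.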

How the data were processed

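Cells, antibodies and libraries are described above. The authors mapped reads to mm9 by ELAND and used those with a unique position. Peak calling by MACS was done once per antibody, on reads pooled over repeats, with pooled NIS reads as control. Each deposited list gives, per region, its first and last position in bp, with no score, signal or p-value. Joining hides the spread between repeats, and uniquely aligned reads leave repeated sequence uncalled. There were 0 columns of sample values left unused.

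Regions were chained by centres within 10 kb, and 3 or more made a chain. Overlap was at least 1 bp. Sequence was NCBIM37, which is mm9, and genes and 95414 transcript starts came from its GENCODE vM1 annotation, and all regions ended within its chromosomes. A gene was at a chain if its body overlapped the span, and next to it if it was the nearest on a side and within 50 kb. Motif words were searched on both strands of the central 200 bp. Unique words were 32-base words found once in the genome, a stand-in for what ELAND could place. Named chains were the 10 with most regions, the 3 largest without a marked region, and those of up to 3 genes per list, by chain size and then list order, and some genes that this rule names are not reported here. The members and gene lists were chosen with earlier results of these data known.

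Computation was in Python (3.11.15) with pandas (2.3.3), NumPy (2.4.6) and SciPy (1.17.1), and figures were drawn with matplotlib (3.10.9). On simulated regions, 6 functions gave 0 differences from direct counting. No test between groups was made.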

Additional observations from a re-analysis of the deposited data

How the results depend on the processing

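For 10 results, 63 values were recomputed under another setting and 47 kept within 1.5 times a count, or within the interval or spread of another value. For each of the 10 results, the 63 and the 47 include a value for autosomes alone. That setting could change none of the results, because chromosome X held no chain. Joining within 5 kb left 468 regions in 143 chains, with 108 genes at a chain, 150 next to one and 26 of the T cell list genes. Joining within 20 kb gave 2185 regions in 587 chains, with 646, 613 and 104 of these genes. The median H3K4me1 cover of the spans changed from 53.6% to 67.2% when joined within 5 kb and to 38.3% within 20 kb. Both of these values count among the 47 kept. Counting a region as marked when its centre lay in an H3K4me1 region lowered the marked share to 56.0% in chains and 42.2% among single regions, and widening H3K4me1 regions by 500 bp raised it to 81.4% and 56.0%. With 1 start per protein-coding gene, 11.7% of chain regions were under 1 kb from a start. RUNX words were present in 92.9% of whole chain regions and in 51.2% of their central 100 bp. Counting genes at a chain alone left 35 of the T cell list genes. Merging regions with under 1 kb between their edges first gave 217 chains.

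The 63 values include those of 3 settings that were chosen after the data were seen. Without the 5 chains that held a region with under 50% unique words, 304 chains were left. Without such regions, 74.8% of chain regions were marked. With gene starts in place of gene bodies within 50 kb, 56 of the T cell list genes were at or next to a chain.

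Of 50 member numbers of the 10 largest chains, 42 were within 1.5 times of the number given. These numbers also include the values for autosomes alone, which could not differ. No paired analysis was possible because the result comes from no test, the lists having been called on joined reads. The lists give no read depth, so a region or chain missing from them may lie below detection.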

Other observations

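Chains also lay near each other. Another chain was under 100 kb away for 37 of the 309, in 20 neighbouring pairs of chains. The closest pair, of 4 and 3 regions, was 9.39 kb apart on chromosome 16 (chr16:91436655-91465314), and a chain of 4 at Ifngr2, a receptor gene for interferon gamma, followed 67.7 kb further on. A chain of 4 regions near Il2rb was 39.4 kb from a chain of 5 at Rac2, a GTPase of blood cells.

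The gene bodies of Lef1, Sema4d and Sept9 contained 2 chains each, and the annotated model Gm20388, which is 4435 kb long, contained 3. Lef1, Sema4d and Sept9 were 92.5 to 162.7 kb long, above the median of 34.5 kb of genes at chains.

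Regions in 5 chains had under 50% of their 32-base words unique, 9 regions in all. In 2 chains this held for every region. One lay among T cell receptor alpha variable segments (Trav11d and Trav6d-6) and one at Dynlt1b, neither of them with a marked region.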
